A study of Mus musculus with 8 samples.

Results

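The nuclear genes of the mitochondrial respiratory chain were followed through RNA sequencing libraries of mouse natural killer (NK) cells that either carried or lacked CIS, the product of Cish and a SOCS-family inhibitor of cytokine signalling. Members were chosen by gene symbol alone: symbols beginning with Nduf and a subunit letter (a, b, c, s or v) and a digit for complex I, the 4 Sdh genes for complex II, symbols beginning with Uqcr for complex III, with Cox and a digit of 4 to 8 for complex IV and with Atp5 for complex V, with annotated pseudogenes left out. The rule gave 84 of the 27179 genes counted, made up of 37 of complex I, 4 of complex II, 8 of complex III, 18 of complex IV and 17 of complex V. A total of 78 members had enough counts to be tested. The other 6 were Uqcr11, Cox8b, Cox8c and Cox7b2, which had 0 counts in all 8 libraries, and Cox4i2 and Ndufa4l2, which had 5 and 3 counts in total. The rule missed Ndufab1 of complex I and Cyc1 of complex III, and it put Ndufa4, now assigned to complex IV, with complex I by its name. It also put Atp5sl, an assembly-related protein rather than a subunit, with complex V by its name.

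The groups were CIS-/- NK cells in vitro, wild-type NK cells in vitro, CIS-/- NK cells ex vivo and wild-type NK cells ex vivo, with 2 libraries each, all from C57BL/6 mice. CIS-/- cells are called CIS-null here. NK cells, lymphocytes of innate immunity that lyse virus-infected and tumour cells, were enriched with DX5 microbeads against CD49b from spleen, bone marrow and blood, and the labels give no age, sex, medium, cytokine or length of culture, and no statement that replicates came from separate mice or cultures. P-values here therefore reflect differences among these particular libraries, and that spread may be technical.

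The respiratory chain passes electrons from NADH (complex I) and succinate (complex II) through coenzyme Q, complex III and cytochrome c to oxygen at complex IV, and complex V uses the proton gradient this builds to make ATP. Most subunits are encoded in the nucleus, translated in the cytosol and imported, while a small set in complexes I, III, IV and V is encoded in mitochondrial DNA. Lymphocytes that are activated and divide are known to enlarge their mitochondria and to depend on this chain together with glycolysis.

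The 8 libraries held 21.5 to 28.1 M counts. Members took 1.44% and 1.63% of all counts in CIS-null in vitro cells, 1.32% and 1.30% in wild-type in vitro cells, 1.03% and 0.865% in CIS-null ex vivo cells and 0.873% and 0.860% in wild-type ex vivo cells. Cish, whose product is missing in the mutant, was at 21.2 and 17.2 counts per 1e6 counts (CPM) in CIS-null cells in vitro and at 219.8 and 201.9 CPM in wild-type cells in vitro. Ex vivo it stood at 1.29 and 2.64 CPM in CIS-null libraries, against 9.26 and 9.12 CPM in wild-type libraries. The 10 NK cell markers, Ncr1 and Eomes among them, were all tested and summed to 19627.0 to 34393.3 CPM in every library. Xist was present at 130.7 and 89.7 CPM in CIS-null in vitro libraries and at 0 and 0.0351 CPM in wild-type in vitro libraries, while the Y-linked Ddx3y was at 0 and 0.0400 CPM in CIS-null in vitro libraries and at 79.3 and 82.6 CPM in wild-type in vitro libraries. Ex vivo, Xist was at 0.322 and 0.197 CPM in CIS-null libraries and at 119.6 and 162.1 CPM in wild-type libraries, and Ddx3y was at 67.4 and 110.5 CPM in CIS-null libraries and at 44.1 and 28.1 CPM in wild-type libraries. Sex-linked expression thus differed between the groups of every comparison made here, both genotype comparisons, both culture comparisons and the interaction, and its part cannot be told apart from genotype or culture.

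Per base of gene length, the members spanned a wide range of levels. The median member stood at 124.6 RPKM (CPM per 1000 bases of gene) over the 8 libraries, and 46 of the 78 tested members stood at 100 RPKM or more. Cox4i1, the general isoform of subunit 4 of complex IV, had the highest level with 860.8 RPKM, followed by Atp5e, the epsilon subunit of complex V, with 771.5 RPKM, and Cox8a, a small general subunit of complex IV, with 665.5 RPKM. By complex, the median levels were 93.2 RPKM for complex I, 123.7 for complex II, 148.7 for complex III, 201.2 for complex IV and 185.6 for complex V. Of the tested members, 10 lay below 10 RPKM, and among them were subunits found in every cell, such as Ndufa12 with 1.93 RPKM, Sdhd with 2.13 RPKM and Ndufb4 with 4.66 RPKM.

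Some of these low members, and some at higher levels, share sequence with other annotated genes. Windows of 50 bases were taken from each member's longest coding transcript. The share also found, on either strand, in a transcript of another annotated gene was 84.8% for Atp5l, 50.3% for Atp5o, 47.9% for Atp5h and 43.4% for Uqcrb. It was 37% for Ndufb4, 27.9% for Cox7c and 26.2% for Ndufa12, and 16 members had a share of at least 20%. Genes that overlap a member at the same place were not left out. The share with annotated pseudogenes was 68.5% for Atp5l, 46.6% for Atp5h, 43.2% for Uqcrb, 37% for Ndufb4 and 26.2% for Ndufa12. It was 19.1% for Atp5o and 10.6% for Cox7c. The handling of reads that fit several places was not given in the sources used here, so the levels and changes of these members, and the 0 counts of Uqcr11 with a share of 10.9%, are uncertain. Sdhd shared 0% of its windows.

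Promoters are shown for 6 members whose values are given in full below, to set genes that differed in behaviour side by side. Ndufc1, Uqcrh and Cox7a1 rose in culture, Cox6a1 rose in culture and has a partner isoform that fell, Uqcrc1 moved least in its complex, and Ndufa4 fell. The sequences are from RefSeq (GRCm38.p6) and run from 250 bases before to 50 bases after the annotated start, with capitals marking matches on either strand to the letters searched: CGCATGCGC for nuclear respiratory factor 1 (NRF1), CCGGAAG for ETS factors such as the GA-binding protein, and AAGATGGCG for YY1.
Ndufc1 promoter, chr3:51408906-51409205, minus strand: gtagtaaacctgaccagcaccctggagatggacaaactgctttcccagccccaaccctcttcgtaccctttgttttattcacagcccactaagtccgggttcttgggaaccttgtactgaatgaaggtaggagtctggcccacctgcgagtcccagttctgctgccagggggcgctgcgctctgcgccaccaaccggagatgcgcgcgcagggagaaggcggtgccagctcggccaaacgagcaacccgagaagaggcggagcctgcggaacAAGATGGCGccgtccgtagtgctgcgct
Ndufa4 promoter, chr6:11907401-11907700, minus strand: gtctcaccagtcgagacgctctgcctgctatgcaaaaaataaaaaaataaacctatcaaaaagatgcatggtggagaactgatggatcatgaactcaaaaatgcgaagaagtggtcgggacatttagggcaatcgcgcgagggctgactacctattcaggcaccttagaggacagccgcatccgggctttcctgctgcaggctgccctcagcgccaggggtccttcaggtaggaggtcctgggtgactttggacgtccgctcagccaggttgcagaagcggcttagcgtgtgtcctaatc
Uqcrh promoter, chr4:116075021-116075320, minus strand: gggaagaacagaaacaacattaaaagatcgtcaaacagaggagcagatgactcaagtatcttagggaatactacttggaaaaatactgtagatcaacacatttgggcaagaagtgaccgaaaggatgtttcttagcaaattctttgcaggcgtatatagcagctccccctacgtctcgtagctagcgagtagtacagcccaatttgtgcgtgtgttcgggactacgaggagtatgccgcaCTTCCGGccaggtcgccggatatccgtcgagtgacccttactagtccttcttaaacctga
Uqcrc1 promoter, chr9:108936398-108936697, plus strand: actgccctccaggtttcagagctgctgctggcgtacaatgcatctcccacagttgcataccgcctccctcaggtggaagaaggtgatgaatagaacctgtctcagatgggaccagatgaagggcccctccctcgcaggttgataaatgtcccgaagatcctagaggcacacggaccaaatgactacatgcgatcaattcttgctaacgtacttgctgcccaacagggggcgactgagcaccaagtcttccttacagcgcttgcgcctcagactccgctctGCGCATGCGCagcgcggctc
Cox6a1 promoter, chr5:115348909-115349208, minus strand: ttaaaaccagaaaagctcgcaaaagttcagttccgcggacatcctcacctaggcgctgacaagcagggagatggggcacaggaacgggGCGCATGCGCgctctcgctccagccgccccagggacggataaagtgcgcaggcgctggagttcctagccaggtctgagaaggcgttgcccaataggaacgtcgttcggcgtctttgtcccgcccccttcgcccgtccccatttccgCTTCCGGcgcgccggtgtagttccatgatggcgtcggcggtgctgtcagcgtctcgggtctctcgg
Cox7a1 promoter, chr7:30183921-30184220, plus strand: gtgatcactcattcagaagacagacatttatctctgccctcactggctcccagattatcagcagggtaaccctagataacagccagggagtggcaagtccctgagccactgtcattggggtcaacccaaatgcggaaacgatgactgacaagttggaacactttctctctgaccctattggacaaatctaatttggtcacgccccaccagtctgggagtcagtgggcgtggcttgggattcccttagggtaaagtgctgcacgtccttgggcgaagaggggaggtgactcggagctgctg
Ndufc1 held the YY1 letters from base 23 after the start. Uqcrh held the ETS letters on the opposite strand from base -10. Uqcrc1 held the NRF1 letters, which read nearly alike on both strands, from bases 31 and 32, and Cox6a1 held them from bases -162 and -161, with the ETS letters from base -16. Ndufa4 and Cox7a1 held none of the 3. Matches that overlap on the 2 strands are marked as 1 run of capitals.

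Among the 69 of 84 members with a RefSeq promoter, the NRF1 letters were present in 8 (11.6%), against 1.95% of the 27025 genes in the table. The ETS letters were present in 16 members (23.2%), against 9.93% of all genes, and the YY1 letters in 8 members (11.6%), against 1.64%. The NRF1 holders were Atp5g2, Atp5k, Atp5l, Cox6a1, Ndufa8, Ndufa11, Uqcr11 and Uqcrc1. The YY1 holders were Atp5j, Atp5j2, Atp5sl, Ndufa9, Ndufc1, Ndufs4, Ndufs6 and Ndufs7, all placed in complexes I and V by their names. A match is a description of letters and was not tested as a binding site.

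Culture was compared first in wild-type cells. Of the 78 tested members, 59 were higher and 5 were lower in wild-type in vitro cells than in wild-type ex vivo cells at an adjusted p below 0.05, from edgeR's quasi-likelihood test with Benjamini-Hochberg adjustment over all 13184 tested genes, which is the source of every adjusted p here. Over all genes tested, 32.1% were called higher and 31.6% lower in that comparison. The median member had a log2 fold change of 0.61, against -0.00 over all genes, and 0.41 against 0.05 once the trend of each library's counts with gene length was removed. In bulk RNA, more cells of one state and more RNA per cell cannot be told apart.

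Cycling-cell markers moved with culture. The 12 markers, Mki67 and Top2a among them, were all tested and summed to 1504.8 and 1556.5 CPM in wild-type in vitro libraries and to 442.0 and 446.4 CPM in wild-type ex vivo libraries. B and plasma cell markers went the other way, with 12 of 13 tested and sums of 156.0 and 97.1 CPM in wild-type libraries in vitro, against 420.0 and 355.5 CPM in wild-type ex vivo libraries. Erythroid and platelet markers summed to 0.626 and 0.703 CPM in wild-type in vitro libraries and to 35.3 and 25.1 CPM in wild-type ex vivo libraries. T cell markers were higher in culture, at 586.7 and 506.2 CPM in wild-type in vitro libraries and 300.1 and 319.8 CPM in wild-type ex vivo libraries, and so were basophil and mast cell markers, at 777.4 and 992.8 CPM in vitro and 483.0 and 473.1 CPM ex vivo. Dendritic cell markers (4 of 8 tested) were lower, at 657.6 and 432.3 CPM in wild-type in vitro libraries and 1041.7 and 950.8 CPM in wild-type ex vivo libraries, and neutrophil markers (5 of 9 tested) stood at 0 and 0.0351 CPM in vitro and 10.5 and 5.92 CPM ex vivo. Monocyte and macrophage markers were higher in wild-type culture, at 1751.8 and 1675.2 CPM in vitro and 1291.3 and 1144.2 CPM ex vivo. NK cell markers were lower in wild-type culture, at 22571.9 and 19627.0 CPM in vitro and 25125.6 and 25331.3 CPM ex vivo. The part of any of these cells or of division in the members' change was not tested.

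In complex I, which takes electrons from NADH, 28 of 36 tested members were higher in wild-type in vitro cells and 2 were lower, with a median log2 fold change of 0.59. Ndufc1, a small accessory subunit of the membrane arm, stood at 32.3 and 30.2 CPM in wild-type libraries in vitro, against 12.2 and 11.8 CPM in wild-type ex vivo libraries. The groups did not overlap, and the log2 fold change was 1.38 (SE 0.182, adjusted p = 0.000266). Ndufa10, another accessory subunit, stood at 167.1 and 154.4 CPM in wild-type libraries in vitro, against 64.5 and 63.9 CPM in wild-type ex vivo libraries, a log2 fold change of 1.32 (SE 0.0876, adjusted p = 5.96e-06). Ndufs5 and Ndufc2 rose by 1.09 and 1.00 on the log2 scale. Ndufs1, the largest subunit and carrier of several iron-sulphur clusters, had a log2 fold change of 0.07 (adjusted p = 0.461).

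Ndufa4 stood out from the complex I names by falling. It had 105.7 and 93.9 CPM in wild-type libraries in vitro, against 163.3 and 166.4 CPM in wild-type ex vivo libraries, with no overlap. Its log2 fold change was -0.72 (SE 0.141, adjusted p = 0.00213). Ndufa12 also fell, by 1.45 on the log2 scale (adjusted p = 0.0103), but at levels of 0.348 and 0.632 CPM in wild-type in vitro libraries and 1.51 and 1.18 CPM in wild-type ex vivo libraries, and a share of its windows occurs in other genes as given above. Ndufa4l2, the hypoxia-inducible relative of Ndufa4, had 0 CPM in all 4 wild-type libraries.

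**Figure D1:**
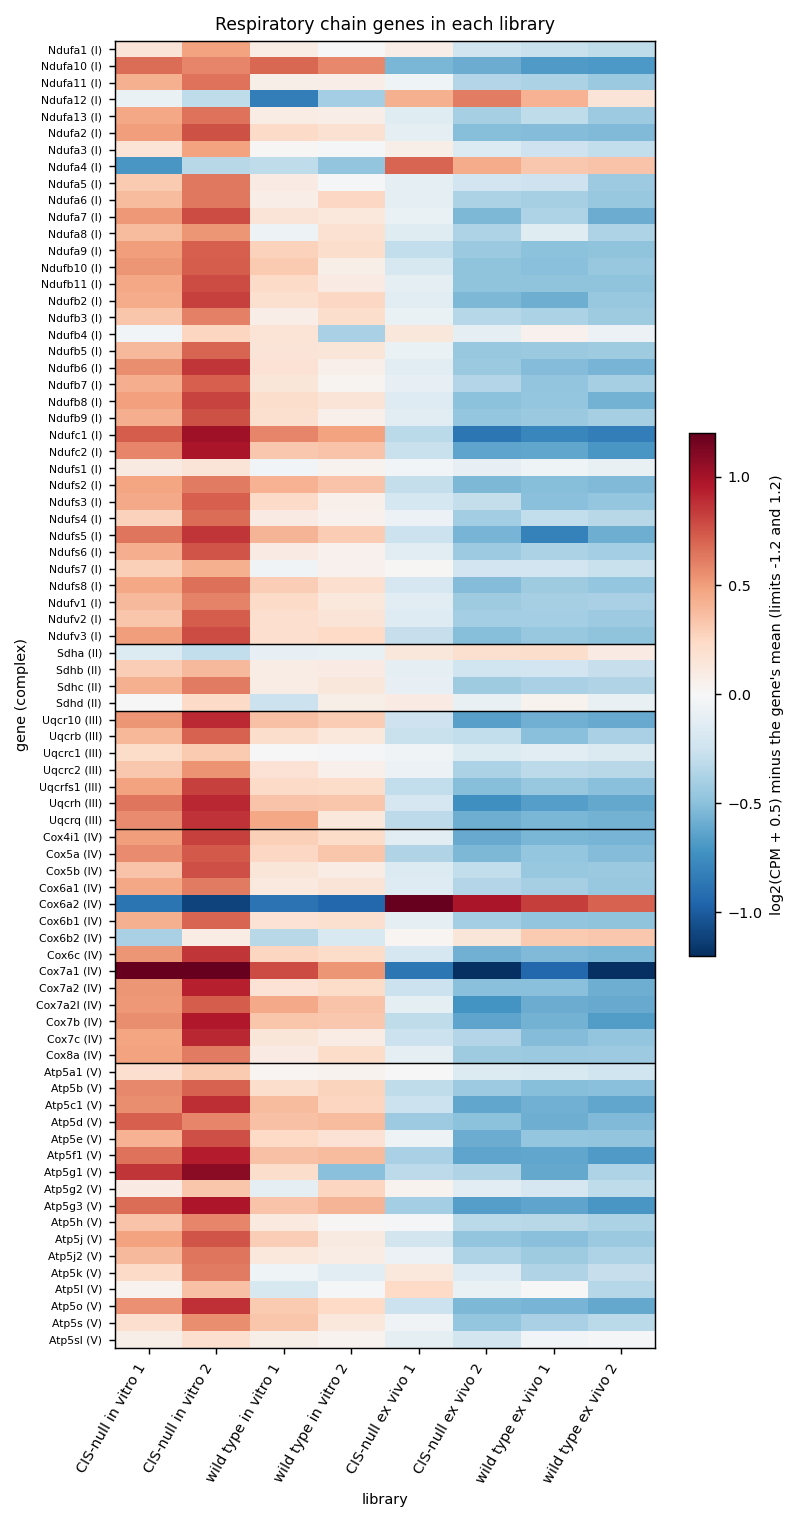
Values of the 78 tested respiratory chain genes (rows, by complex) in the 8 libraries (columns), as log2(CPM + 0.5) minus the gene's own mean over the libraries. Most rows are red in the 4 in vitro columns and blue in the 4 ex vivo columns. Ndufa4, Ndufa12, Sdha and Cox6a2 run the other way, as does Cox6b2 in the wild-type libraries, while its CIS-null libraries overlap. CIS-null in vitro replicate 2 is higher than replicate 1 in 73 of the 78 genes.

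Complex II is encoded wholly in the nucleus and also works in the tricarboxylic acid cycle. Its 4 subunits did not move together, and their median log2 fold change of 0.13 was -0.05 with the length trend removed. Sdhc, a membrane anchor, stood at 171.6 and 177.3 CPM in wild-type libraries in vitro, against 123.2 and 125.9 CPM in wild-type ex vivo libraries (log2 fold change 0.49, SE 0.123, adjusted p = 0.00830). Sdhb, the iron-sulphur subunit, stood at 155.4 and 156.8 CPM in wild-type libraries in vitro, against 124.9 and 120.9 CPM in wild-type ex vivo libraries (log2 fold change 0.35, SE 0.0877, adjusted p = 0.00836). Both rose without overlap.

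Sdha, the flavoprotein that oxidises succinate, was lower: 290.0 and 290.7 CPM in wild-type libraries in vitro, against 359.3 and 332.4 CPM in wild-type ex vivo libraries. The log2 fold change was -0.25 (SE 0.0922, adjusted p = 0.0395), and the groups did not overlap. With each library's trend of counts with gene length removed, it was -0.19 (adjusted p = 0.0514). Sdhd, the other anchor, stood at 2.19 and 2.88 CPM in wild-type libraries in vitro, against 2.82 and 2.53 CPM in wild-type ex vivo libraries, and the groups overlapped (log2 fold change -0.08, SE 0.244).

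In complex III, 6 of 7 tested members rose in wild-type cells in culture, with a median log2 fold change of 0.71. Uqcrh, the hinge protein near cytochrome c1, stood at 371.5 and 368.6 CPM in wild-type libraries in vitro, against 184.9 and 191.3 CPM in wild-type ex vivo libraries (log2 fold change 0.98, SE 0.168, adjusted p = 0.00111). Uqcrfs1, the Rieske iron-sulphur protein, rose by 0.71 (adjusted p = 0.00136). Uqcrc1, a core protein on the matrix side, stood at 228.2 and 226.8 CPM in wild-type libraries in vitro, against 208.9 and 203.6 CPM in wild-type ex vivo libraries. Its groups did not overlap, but the log2 fold change of 0.14 did not pass (SE 0.0883, adjusted p = 0.190).

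In complex V, 11 of 17 members rose and 0 fell in wild-type cells in culture, with a median log2 fold change of 0.67. At an unadjusted p below 0.05 there were 12 of the 17, where 8895 of all 13184 tested genes passed in either direction. Atp5g3, one of 3 genes for the same mature c subunit of the rotor ring, stood at 498.0 and 519.2 CPM in wild-type libraries in vitro, against 251.8 and 241.4 CPM in wild-type ex vivo libraries (log2 fold change 1.04, SE 0.129, adjusted p = 0.000183). Atp5b, the catalytic beta subunit, stood at 1369.0 and 1425.8 CPM in wild-type libraries in vitro, against 831.4 and 833.5 CPM in wild-type ex vivo libraries (log2 fold change 0.75, SE 0.0985, adjusted p = 0.000262). Atp5a1, its alpha partner in the catalytic head, had a log2 fold change of 0.24 that did not pass (adjusted p = 0.0620). Atp5sl, counted here by its name alone, stood at 24.6 and 24.1 CPM in wild-type libraries in vitro, against 22.9 and 23.0 CPM in wild-type ex vivo libraries (log2 fold change 0.09, SE 0.0998, adjusted p = 0.476).

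**Figure D2:**
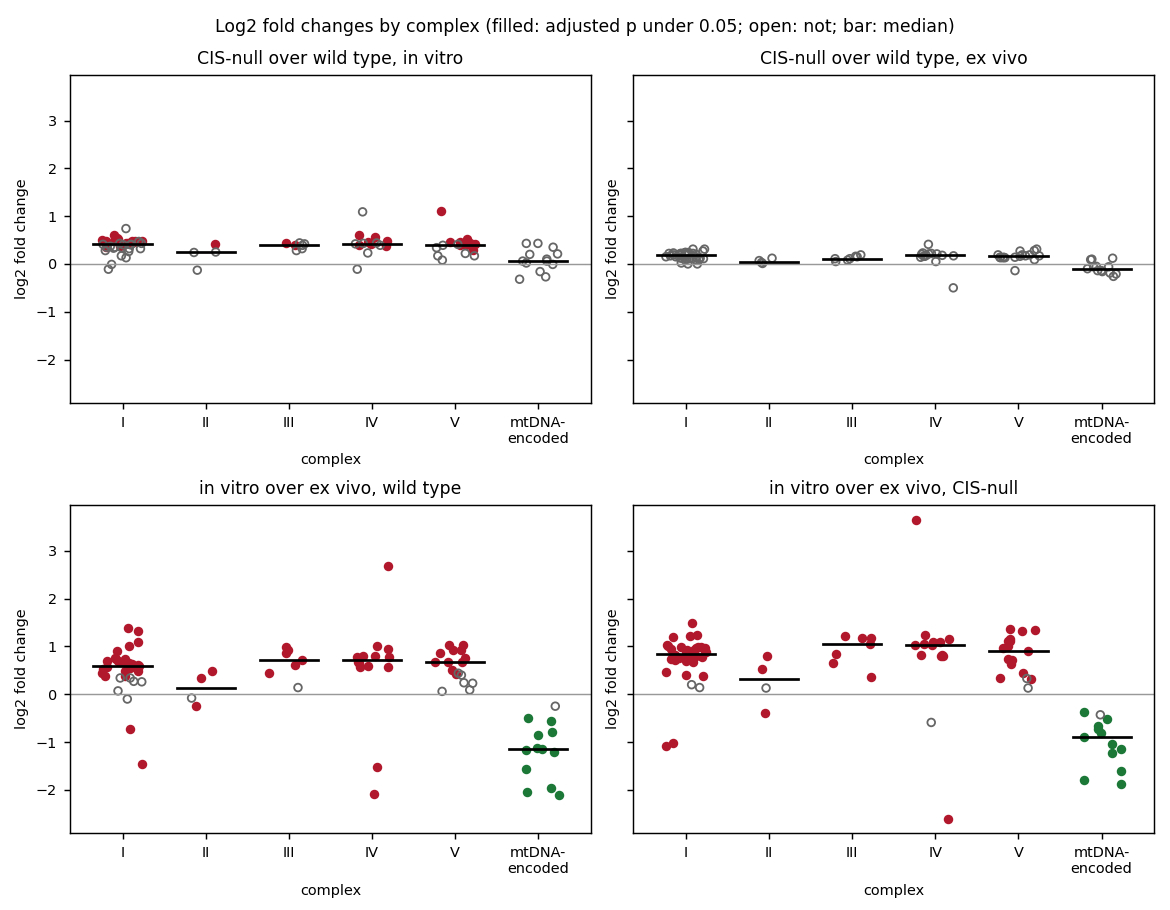
Log2 fold changes of every tested member by complex in 4 comparisons, with the 13 subunits encoded in mitochondrial DNA at the right of each panel; filled points passed an adjusted p of 0.05, open points did not, and bars mark medians. In the wild-type culture panel the medians of complexes I to V were 0.59, 0.13, 0.71, 0.72 and 0.67, against -1.14 for the subunits encoded in mitochondrial DNA.

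In CIS-null cells, culture went with 68 members higher and 4 lower in vitro than ex vivo, where 34.8% of all genes were called higher and 37.5% lower. The median member had a log2 fold change of 0.85, against -0.05 over all genes, and 0.43 against 0.03 with the length trend removed. All 59 members called higher in wild-type culture were also called higher in CIS-null culture, and Ndufa4, Ndufa12, Sdha and Cox6a2 were called lower in both. These culture comparisons share no library, but they come from the same fit and share its estimate of the spread. How many of all tested genes were called higher in both was not counted. In CIS-null cells, too, culture came with other sex-linked expression, as given above, and with T cell marker sums of 1424.4 and 1433.6 CPM in vitro and 382.5 and 291.3 CPM ex vivo. By complex, the counts higher in CIS-null in vitro cells were 32 of 36 for complex I, 2 of 4 for complex II, 7 of 7 for complex III, 12 of 14 for complex IV and 15 of 17 for complex V.

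Of the members described in wild-type culture, Uqcrc1, Atp5a1 and Atp5sl did not pass there and were called higher in CIS-null culture, by 0.37, 0.34 and 0.31, and Sdhd passed in neither. Ndufc1 rose in both. It stood at 35.8 and 43.9 CPM in CIS-null in vitro libraries, against 17.0 and 11.5 CPM in CIS-null ex vivo libraries (log2 fold change 1.48, SE 0.181, adjusted p = 0.000110). Ndufa4 and Sdha fell in both. Ndufa4 stood at 80.6 and 103.9 CPM in CIS-null in vitro libraries, against 212.5 and 177.8 CPM in CIS-null ex vivo libraries (log2 fold change -1.08, SE 0.142, adjusted p = 0.000168). Sdha stood at 277.1 and 252.3 CPM in CIS-null in vitro libraries, against 340.9 and 354.5 CPM in CIS-null ex vivo libraries (log2 fold change -0.39, SE 0.0923, adjusted p = 0.00451). None of these pairs of groups overlapped.

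Complex IV held the largest movements in culture, in the isoforms known from heart and skeletal muscle. Of its 14 tested members, 12 were higher and 2 lower in wild-type in vitro cells. Cox7a1, the muscle isoform of subunit 7a, stood at 2.95 and 2.39 CPM in wild-type libraries in vitro, against 0.547 and 0.276 CPM in wild-type ex vivo libraries (log2 fold change 2.69, SE 0.453, adjusted p = 0.000988). In CIS-null cells it stood at 4.20 and 7.21 CPM in vitro, against 0.599 and 0.315 CPM ex vivo (log2 fold change 3.65, SE 0.442, adjusted p = 0.000106). Every in vitro library lay above every ex vivo library.

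Cox7a2, the widely expressed partner, also rose in culture, by 0.77 in wild-type cells (18.3 and 19.0 CPM in vitro, against 11.3 and 10.6 CPM ex vivo; adjusted p = 0.00297) and by 1.15 in CIS-null cells (23.6 and 31.3 CPM in vitro, against 13.5 and 11.3 CPM ex vivo; adjusted p = 0.000223). Of the summed RPKM of Cox7a1 and Cox7a2, Cox7a1 made up 26.9% and 32.2% in CIS-null in vitro libraries, 24.9% and 20.6% in wild-type in vitro libraries, 8.39% and 5.46% in CIS-null ex vivo libraries and 9.04% and 5.12% in wild-type ex vivo libraries. Cox7a2 was the larger of the pair in all 8 libraries. Cox7a2l, a related gene, rose by 1.00 in wild-type cells (417.2 and 385.7 CPM in vitro, against 201.5 and 200.8 CPM ex vivo, SE 0.178, adjusted p = 0.00136).

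Cox6a2, the muscle isoform of subunit 6a, went the opposite way. It stood at 1.11 and 1.05 CPM in wild-type libraries in vitro, against 4.80 and 4.38 CPM in wild-type ex vivo libraries (log2 fold change -2.08, SE 0.240, adjusted p = 0.000128). In CIS-null cells it stood at 1.12 and 0.881 CPM in vitro, against 6.82 and 5.39 CPM ex vivo (log2 fold change -2.60, SE 0.245, adjusted p = 2.64e-05). Its general partner Cox6a1 rose in wild-type cells, with 251.4 and 258.3 CPM in vitro, against 175.8 and 168.7 CPM ex vivo (log2 fold change 0.57, SE 0.102, adjusted p = 0.00149). Cox6a2 made up 0.199% to 0.357% of the pair's summed RPKM in the 4 in vitro libraries and 2.06% to 2.57% in the 4 ex vivo libraries, so Cox6a1 was by far the main isoform in each library.

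Cox6b2, a testis isoform, was close to the limit of detection, with 0.139 and 0.211 CPM in wild-type libraries in vitro, against 0.505 and 0.513 CPM in wild-type ex vivo libraries (log2 fold change -1.52, SE 0.582, adjusted p = 0.0474). In CIS-null cells the groups overlapped, with 0.116 and 0.360 CPM in vitro, against 0.322 and 0.393 CPM ex vivo (log2 fold change -0.59, adjusted p = 0.390). Its partner Cox6b1 rose by 0.67 in wild-type cells (241.1 and 243.2 CPM in vitro, against 153.0 and 152.0 CPM ex vivo; adjusted p = 0.00194).

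The other complex IV subunits with alternative isoforms were represented by the general form. Cox4i1 stood at 670.6 and 641.1 CPM in wild-type libraries in vitro, against 375.4 and 373.7 CPM in wild-type ex vivo libraries (log2 fold change 0.81, SE 0.164, adjusted p = 0.00270), while Cox4i2, known from lung, had at most 0.0771 CPM in any library. Cox8a stood at 373.3 and 407.0 CPM in wild-type libraries in vitro, against 257.0 and 257.9 CPM in wild-type ex vivo libraries (log2 fold change 0.60, SE 0.119, adjusted p = 0.00242), while Cox8b and Cox8c were at 0. Cox7b stood at 174.9 and 173.6 CPM in wild-type libraries in vitro, against 93.5 and 86.6 CPM in wild-type ex vivo libraries (log2 fold change 0.95, SE 0.151, adjusted p = 0.000730), while Cox7b2 was at 0. Cox5a rose by 0.79 (195.6 and 207.2 CPM in vitro, against 119.1 and 114.4 CPM ex vivo) and Cox5b by 0.58 (33.3 and 32.0 CPM in vitro, against 21.8 and 21.9 CPM ex vivo) in wild-type cells.

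**Figure D3:**
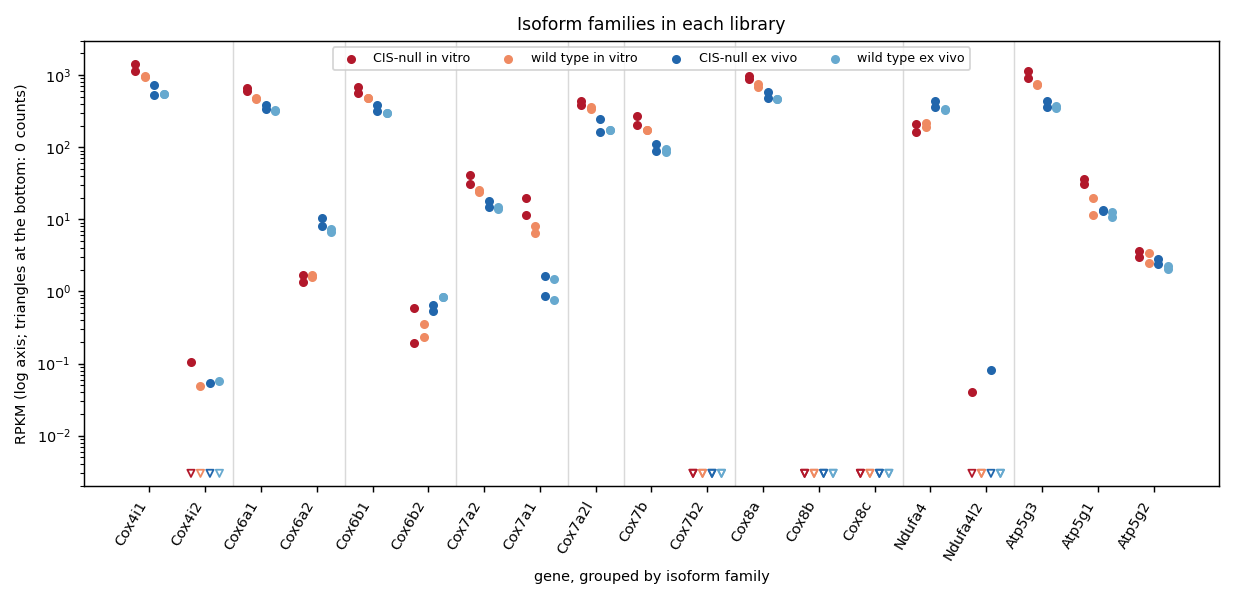
Levels of the isoform families in each library as RPKM on a log axis; each point is 1 library, colours are the 4 groups from CIS-null in vitro to wild-type ex vivo, and open triangles at the bottom mark 0 counts. Cox7a1 lies higher and Cox6a2 lower in the 4 in vitro libraries than in the 4 ex vivo libraries, while Cox7b2, Cox8b and Cox8c are at 0 in all 8.

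The loss of CIS was compared next, in cultured cells. Of the 78 tested members, 35 were higher and 0 were lower in CIS-null in vitro cells than in wild-type in vitro cells, where 11.0% of all genes were called higher and 14.6% lower. At an unadjusted p below 0.05, edgeR gave 59 members higher and 0 lower, where 5292 of all 13184 tested genes passed in either direction. DESeq2 and limma-voom called 56 and 38 higher and 0 lower. The median member had a log2 fold change of 0.41, against 0.00 over all genes. In 68 members both CIS-null libraries lay above both wild-type libraries, where 33.7% of all genes did so, and in Sdha both lay below.

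The count of 35 rested on single libraries and on scaling. Without CIS-null in vitro replicate 2 it was 0, without wild-type in vitro replicate 1 or 2 it was 1 each (Atp5g1), without either wild-type ex vivo library it was 3, without CIS-null in vitro replicate 1 it was 50 and without either CIS-null ex vivo library it was 58. The median log2 fold change of the members stayed above 0 in all 8 of these fits, at 0.26 without CIS-null in vitro replicate 2 and 0.54 without replicate 1. Counts scaled to library totals gave 3 members higher, with the median of all genes at -0.13 and that of the members at 0.27.

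Both CIS-null in vitro libraries differed from each other along the members. In 73 of 78 members replicate 2 was above replicate 1, with a median difference of 0.27 on the log2 scale, whereas the wild-type in vitro libraries differed by -0.04. Over all tested genes the difference between the CIS-null in vitro replicates had a Spearman correlation of -0.48 with gene length, and members were short, with a median length of 679 bases against 2682.5 over all tested genes. After the trend with length was removed from every library, 5 members were called higher in CIS-null in vitro cells (Atp5b, Atp5g1, Ndufa11, Ndufa13 and Ndufv3) and 1 was called lower (Ndufa4), and the median member had a log2 fold change of 0.07. T cell markers also moved with genotype in vitro: all 14 were tested, and they summed to 1424.4 and 1433.6 CPM in CIS-null in vitro libraries, against 586.7 and 506.2 CPM in wild-type in vitro libraries. Cycling-cell markers summed to 1267.9 and 1322.5 CPM in CIS-null in vitro libraries, against 1504.8 and 1556.5 CPM in wild-type in vitro libraries. NK cell markers were also higher, with sums of 29071.4 and 34393.3 CPM in CIS-null in vitro libraries and 22571.9 and 19627.0 CPM in wild-type in vitro libraries. Markers of basophils and mast cells were lower, at 473.8 and 438.3 CPM in CIS-null in vitro libraries and 777.4 and 992.8 CPM in wild-type in vitro libraries (10 of 10 tested). Monocyte and macrophage markers were lower too, at 1150.1 and 1407.2 CPM in CIS-null in vitro libraries and 1751.8 and 1675.2 CPM in wild-type in vitro libraries (13 of 13 tested). None of these 5 sums overlapped between the genotypes, and the part of these cells in the members' difference was not tested.

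**Figure D4:**
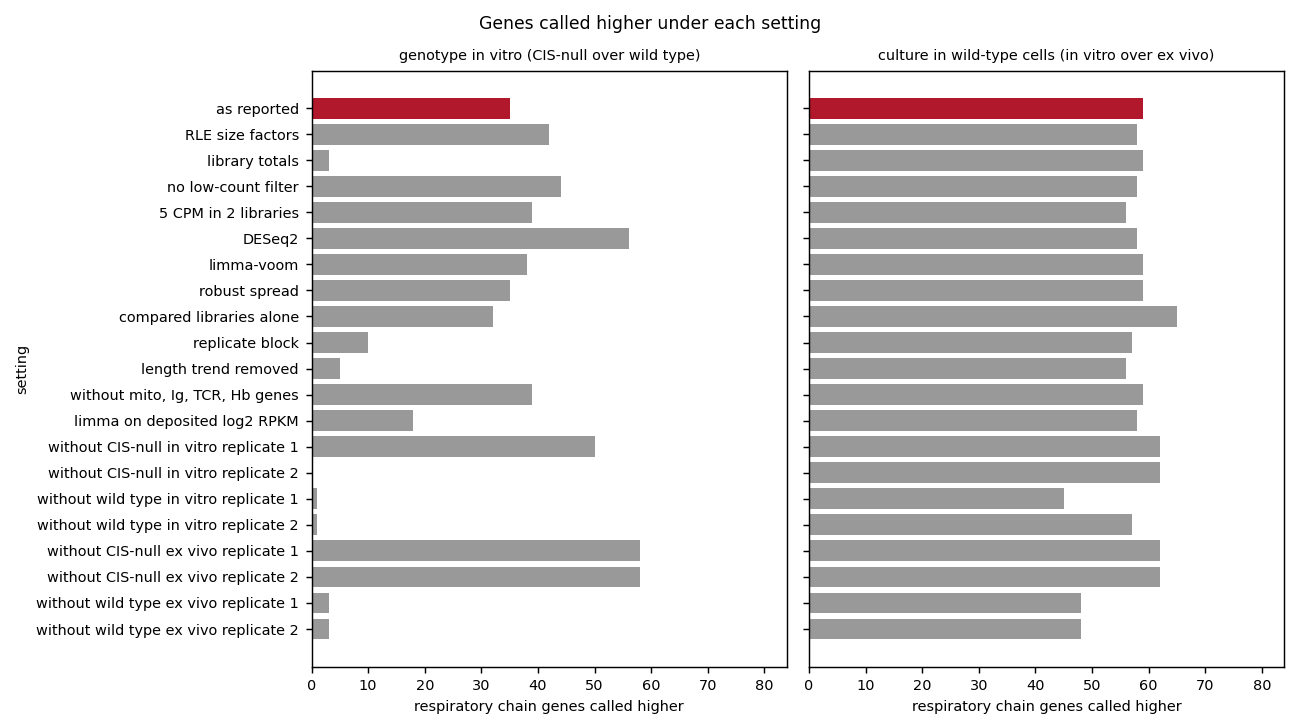
Number of members called higher under each setting (bars), for CIS-null over wild-type cells in vitro (left) and for in vitro over ex vivo wild-type cells (right). The genotype count runs between 0 and 58 and the culture count between 45 and 65.

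By complex, the members called higher in CIS-null in vitro cells were 15 of 36 in complex I, 1 of 4 in complex II, 2 of 7 in complex III, 7 of 14 in complex IV and 10 of 17 in complex V, and the medians were 0.41, 0.24, 0.39, 0.42 and 0.40 on the log2 scale. Atp5g1, another gene for the c subunit, had the largest change. It stood at 26.6 and 31.3 CPM in CIS-null in vitro libraries, against 16.9 and 10.1 CPM in wild-type in vitro libraries, with no overlap (log2 fold change 1.10, SE 0.222, adjusted p = 0.0118). It passed in 19 of the 20 alternative fits, with adjusted p from 5.34e-05 to 0.0928, and did not pass without CIS-null in vitro replicate 2. The wild-type in vitro replicates differed in it by more than those of either ex vivo group did. Of the windows of its longest coding transcript, 11.6% occur in other genes, among them 6 pseudogenes. That transcript has 4715 bases, against a counted gene length of 868.

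Atp5g1 was a minor source of c subunit RNA throughout. Of the summed RPKM of Atp5g1, Atp5g2 and Atp5g3, it made up 3.21% and 3.07% in CIS-null in vitro libraries, 2.58% and 1.49% in wild-type in vitro libraries, 2.97% and 3.39% in CIS-null ex vivo libraries and 2.79% and 3.46% in wild-type ex vivo libraries. Atp5g3 stood at 625.4 and 770.6 CPM in CIS-null in vitro libraries, against 498.0 and 519.2 CPM in wild-type in vitro libraries (log2 fold change 0.46, SE 0.128, adjusted p = 0.0332). Atp5g2 stood at 1.93 and 2.36 CPM in CIS-null in vitro libraries, against 1.60 and 2.21 CPM in wild-type in vitro libraries, and the groups overlapped (log2 fold change 0.17, SE 0.278, adjusted p = 0.686).

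Atp5b stood at 1760.8 and 1932.9 CPM in CIS-null in vitro libraries, against 1369.0 and 1425.8 CPM in wild-type in vitro libraries (log2 fold change 0.40, SE 0.0980, adjusted p = 0.0212). Atp5sl was nearly level, with 24.6 and 26.9 CPM in CIS-null in vitro libraries, against 24.6 and 24.1 CPM in wild-type in vitro libraries (log2 fold change 0.08, SE 0.0994, adjusted p = 0.590). Ndufb6, an accessory subunit of complex I, stood at 82.0 and 101.0 CPM in CIS-null in vitro libraries, against 62.4 and 58.0 CPM in wild-type in vitro libraries (log2 fold change 0.60, SE 0.136, adjusted p = 0.0161). It passed in 16 of 20 alternatives, with adjusted p from 0.000559 to 0.116, though 34.1% of its windows occur in other genes. Ndufa13, also known as a cell-death regulator, stood at 209.6 and 238.8 CPM in CIS-null in vitro libraries, against 161.4 and 160.6 CPM in wild-type in vitro libraries (log2 fold change 0.48, SE 0.114, adjusted p = 0.0199). It passed in 17 of 20 alternatives, though 28.5% of its windows occur in other genes. Without CIS-null in vitro replicate 2 its log2 fold change was 0.38.

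Ndufa4 did not rise with the others: it stood at 80.6 and 103.9 CPM in CIS-null in vitro libraries, against 105.7 and 93.9 CPM in wild-type in vitro libraries, and the groups overlapped (log2 fold change -0.11, SE 0.141, adjusted p = 0.584). With the length trend removed its log2 fold change was -0.52 (adjusted p = 0.00604). The adjusted p ran from 0.00604 to 0.991 over the 20 alternatives. Ndufa10, which rose strongly in culture, stood at 165.0 and 155.3 CPM in CIS-null in vitro libraries, against 167.1 and 154.4 CPM in wild-type in vitro libraries (log2 fold change -0.01, SE 0.0854, adjusted p = 0.983).

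In complex II, Sdhc stood at 217.8 and 249.8 CPM in CIS-null in vitro libraries, against 171.6 and 177.3 CPM in wild-type in vitro libraries (log2 fold change 0.42, SE 0.123, adjusted p = 0.0375). Sdhb stood at 179.1 and 191.2 CPM in CIS-null in vitro libraries, against 155.4 and 156.8 CPM in wild-type in vitro libraries (log2 fold change 0.25, SE 0.0874, adjusted p = 0.0696). Sdha stood at 277.1 and 252.3 CPM in CIS-null in vitro libraries, against 290.0 and 290.7 CPM in wild-type in vitro libraries (log2 fold change -0.13, SE 0.0922, adjusted p = 0.315). Sdhc was thus the complex II subunit that passed, and Sdhd, with 2.70 and 3.28 CPM in CIS-null in vitro libraries against 2.19 and 2.88 CPM in wild-type in vitro libraries, overlapped.

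In complex III, Uqcrb and Uqcrfs1 were called higher, by 0.39 and 0.43. Uqcrh stood at 456.1 and 547.2 CPM in CIS-null in vitro libraries, against 371.5 and 368.6 CPM in wild-type in vitro libraries, a log2 fold change of 0.44 that did not pass (SE 0.166, adjusted p = 0.0838). Uqcrc1 stood at 266.3 and 284.7 CPM in CIS-null in vitro libraries, against 228.2 and 226.8 CPM in wild-type in vitro libraries (log2 fold change 0.28, SE 0.0883, adjusted p = 0.0506). All 7 tested members of complex III lay higher in both CIS-null libraries than in both wild-type libraries, where 33.7% of all genes did so. With the length trend removed, 0 of the 7 were called and the complex III median was 0.05.

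In complex IV, Cox7c, a small general subunit, stood at 11.9 and 16.2 CPM in CIS-null in vitro libraries, against 9.35 and 8.96 CPM in wild-type in vitro libraries (log2 fold change 0.61, SE 0.167, adjusted p = 0.0300). Cox7a2l stood at 437.5 and 506.4 CPM in CIS-null in vitro libraries, against 417.2 and 385.7 CPM in wild-type in vitro libraries (log2 fold change 0.23, SE 0.176, adjusted p = 0.358). Cox7a1 stood at 4.20 and 7.21 CPM in CIS-null in vitro libraries, against 2.95 and 2.39 CPM in wild-type in vitro libraries, a log2 fold change of 1.09 without overlap that missed the threshold (SE 0.357, adjusted p = 0.0543). Cox6a1 and Cox7a2 passed, with log2 fold changes of 0.41 and 0.56, while Cox6a2 had -0.11 (adjusted p = 0.785).

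A total of 3 members lie on the X chromosome. Ndufb11 passed in CIS-null over wild-type cells in vitro, with a log2 fold change of 0.47 (adjusted p = 0.0444), and Cox7b and Ndufa1 had 0.44 and 0.28 (adjusted p = 0.0592 and 0.167). These values lay within the range of the autosomal members, from -0.13 to 1.10.

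Ex vivo, 0 members were higher and 0 lower in CIS-null cells than in wild-type cells with edgeR, and DESeq2 and limma-voom also called 0. Over all genes, 0.0303% were called higher and 0.0303% lower. At an unadjusted p below 0.05, edgeR gave 0 members, against 844 of all 13184 tested genes. The median member had a log2 fold change of 0.16, against 0.02 over all genes, and both CIS-null libraries lay above both wild-type libraries in 32 members, where 22.0% of all genes did so. Both lay below in Atp5sl and Cox6b2.

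This ex vivo difference came with replicate 1 of the CIS-null cells. In 75 of 78 members CIS-null ex vivo replicate 1 lay above replicate 2. The median log2 difference from the wild-type ex vivo libraries was 0.27 and 0.29 for CIS-null replicate 1, and -0.00 and 0.03 for CIS-null replicate 2. B and plasma cell markers summed to 685.0 CPM in CIS-null ex vivo replicate 1 and to 229.2 CPM in replicate 2, and the Spearman correlation of the replicate difference with gene length was 0.39 over all tested genes; their part was not tested.

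Single members also had replicate 1 above replicate 2, though in Atp5b and Ndufb6 replicate 2 lay above both wild-type libraries too. Atp5b stood at 955.4 and 873.0 CPM in CIS-null ex vivo libraries, against 831.4 and 833.5 CPM in wild-type ex vivo libraries (log2 fold change 0.14, SE 0.0980, adjusted p = 0.780). Ndufb6 stood at 50.9 and 40.5 CPM in CIS-null ex vivo libraries, against 38.4 and 37.5 CPM in wild-type ex vivo libraries (log2 fold change 0.27, SE 0.139, adjusted p = 0.766). Cox4i1 stood at 501.9 and 360.7 CPM in CIS-null ex vivo libraries, against 375.4 and 373.7 CPM in wild-type ex vivo libraries, and overlapped (log2 fold change 0.20, SE 0.163, adjusted p = 0.782).

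The genotype difference in vitro minus that ex vivo, the interaction, was tested directly. edgeR called 0 members higher and 0 lower, where 0.0531% of all genes were called higher and 0.0834% lower. DESeq2 and limma-voom also called 0 members. At an unadjusted p below 0.05, edgeR gave 2 members, both higher, against 2586 of all 13184 tested genes in either direction. The median member had an interaction of 0.23 on the log2 scale, against -0.04 over all genes, and -0.01 with the length trend removed. Atp5g1 had 0.94 (SE 0.321, adjusted p = 0.180) and Cox7a1 had 0.96 (SE 0.666, adjusted p = 0.468). The 35 calls in vitro against 0 ex vivo were therefore not shown to differ between the states for any member in this fit.

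Summed over a complex, every in vitro library lay above every ex vivo library for complexes I, III, IV and V. Complex V members summed to 5967.9 and 6873.2 CPM in CIS-null in vitro libraries and 4965.0 and 4961.4 CPM in wild-type in vitro libraries, and to 3780.2 and 3245.6 CPM in CIS-null ex vivo libraries and 3210.5 and 3157.6 CPM in wild-type ex vivo libraries. Complex I members summed to 3921.4 and 4681.5 CPM in CIS-null in vitro libraries and 3405.9 and 3268.2 CPM in wild-type in vitro libraries, and to 2784.4 and 2292.2 CPM in CIS-null ex vivo libraries and 2284.0 and 2246.4 CPM in wild-type ex vivo libraries. Complex II was flatter, between 581.8 and 696.7 CPM in all 8 libraries.

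**Figure D5:**
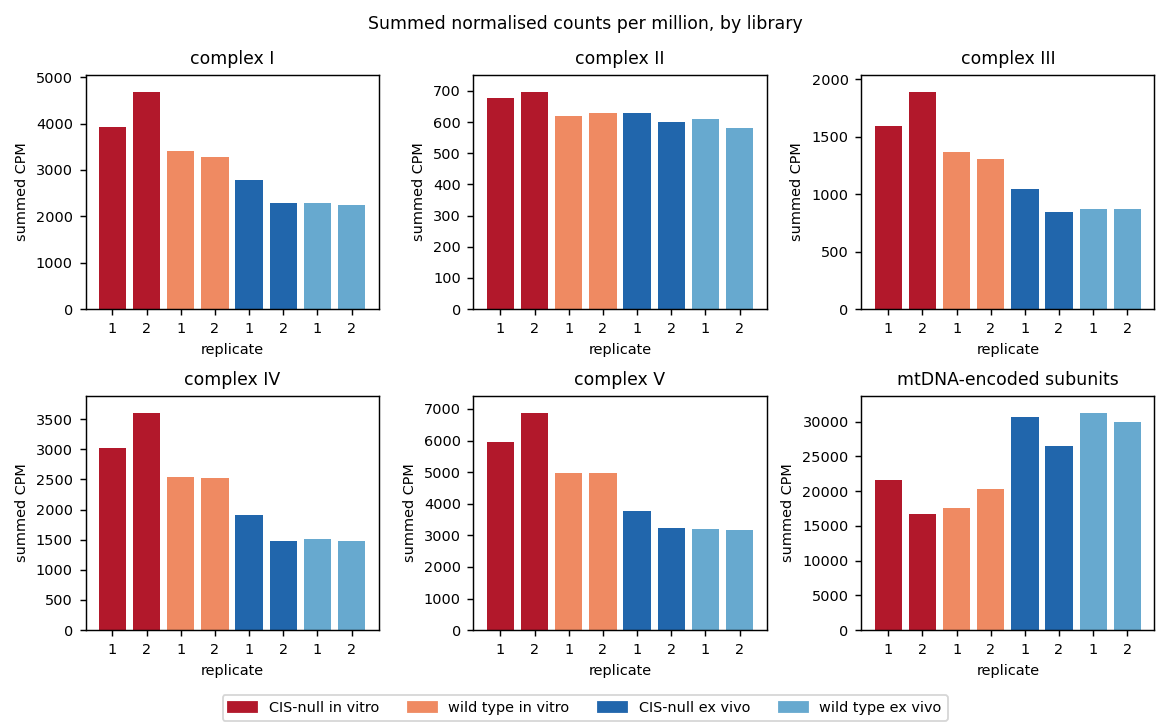
Summed CPM of the members of each complex, and of the 13 subunits encoded in mitochondrial DNA, in every library (bars, replicates 1 and 2 of each group, from CIS-null in vitro to wild-type ex vivo). Complexes I, III, IV and V are highest in vitro, complex II lies between 581.8 and 696.7 CPM, and the subunits encoded in mitochondrial DNA are lowest in vitro.

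The subunits encoded in mitochondrial DNA went against the nuclear members in culture. Of 13, 0 were higher and 12 lower in wild-type in vitro cells than in wild-type ex vivo cells, with a median log2 fold change of -1.14, and 0 were higher and 12 lower in CIS-null culture, with a median of -0.89. Over all genes, 31.6% were called lower in wild-type culture and 37.5% in CIS-null culture. They summed to 21630 and 16675 CPM in CIS-null in vitro libraries and 17634 and 20284 CPM in wild-type in vitro libraries, and to 30728 and 26545 CPM in CIS-null ex vivo libraries and 31242 and 29933 CPM in wild-type ex vivo libraries. COX1, the catalytic subunit of complex IV, stood at 8620.5 and 10102.8 CPM in wild-type libraries in vitro, against 13444.9 and 13010.5 CPM in wild-type ex vivo libraries (log2 fold change -0.50, SE 0.144, adjusted p = 0.0150). ATP6, of the proton channel of complex V, stood at 64.7 and 77.9 CPM in wild-type libraries in vitro, against 329.7 and 284.6 CPM in wild-type ex vivo libraries (log2 fold change -2.11, SE 0.168, adjusted p = 1.62e-05). ND6 had a log2 fold change of -0.25 that did not pass (adjusted p = 0.237).

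The direction of these subunits in wild-type culture was the same with RLE factors, library totals, the length trend removed and the deposited log2 RPKM, which gave 11 or 12 lower and medians of -1.10 to -1.34. Between genotypes in vitro 0 of 13 were called in either direction, where 11.0% of all genes were called higher and 14.6% lower. The median of 0.06 was -0.07 with library totals and -0.18 with the length trend removed. Nuclear near-copies of mitochondrial DNA are known in mice, so levels between these subunits, such as COX1 against ATP6, are uncertain.

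Factors that assemble the complexes were mostly higher in culture. In wild-type in vitro cells, 13 of 15 complex I assembly factors were higher than ex vivo, 2 of 3 for complex II, 6 of 7 for complex III with Cyc1, 11 of 21 for complex IV with 1 lower (Cox11, -0.41), and 3 of 5 for complex V, where 32.1% of all genes were called higher. Atpif1, the inhibitor of the ATP synthase, averaged (over 2 libraries, as do all such means) 96.7 CPM in wild-type in vitro cells and 23.4 CPM in wild-type ex vivo cells (log2 fold change 2.04, SE 0.112, adjusted p = 2.22e-06). Sdhaf1, which helps build the iron-sulphur subunit of complex II, averaged 41.8 CPM in wild-type in vitro cells and 12.0 CPM in wild-type ex vivo cells (log2 fold change 1.80, SE 0.152, adjusted p = 2.22e-05).

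Between genotypes in vitro, the assembly factors called higher in CIS-null cells were, for complexes I to V, 6 of 15, 0 of 3, 3 of 7, 6 of 21 and 2 of 5. None was called lower, and 11.0% of all genes were called higher. With the length trend removed these counts were 2, 0, 0, 5 and 0, and with library totals they were 1, 0, 1, 3 and 1. Without CIS-null in vitro replicate 2, 1 of these lists' members was called, in complex IV. Ndufaf4, a complex I assembly factor, averaged 38.2 CPM in CIS-null in vitro cells and 23.0 CPM in wild-type in vitro cells (log2 fold change 0.73, SE 0.133, adjusted p = 0.00889). Cycs, the somatic cytochrome c that carries electrons between complexes III and IV, averaged 9.31 CPM in CIS-null in vitro cells and 5.82 CPM in wild-type in vitro cells (log2 fold change 0.68, SE 0.212, adjusted p = 0.0474). Cycs did not pass with library totals, with limma on the deposited log2 RPKM or without CIS-null in vitro replicate 2.

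Known regulators of nuclear respiratory genes mostly did not rise. The list holds activators as well as corepressors such as Ncor1, so counts over it give no single direction of regulation. Of 17 tested, 3 were higher and 8 lower in wild-type in vitro cells than in wild-type ex vivo cells, where 32.1% of all genes were called higher and 31.6% lower. With the length trend removed 3 were higher and 5 lower, and their median log2 fold change was -0.01 instead of -0.18. In CIS-null in vitro cells 0 were higher and 6 lower than in wild-type in vitro cells, where 14.6% of all genes were called lower, and with the length trend removed 2 were higher and 5 lower. Higher in wild-type culture were Myc (log2 fold change 1.12, adjusted p = 0.000583), Pprc1, a coactivator related to PGC-1 (0.82, adjusted p = 0.00138), and Hif1a (0.76, adjusted p = 0.000203). Nrf1, whose letters were searched in the promoters, fell by 0.29 (adjusted p = 0.0233), Gabpa, the GA-binding protein's DNA-binding subunit, fell by 0.28 (adjusted p = 0.0443), and Yy1 had -0.11 (adjusted p = 0.286).

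Among the members with a RefSeq promoter, the NRF1 letters were in 2 of 50 (4%) called higher in wild-type culture, in 0 of 4 called lower and in 5 of 12 (41.7%) that did not pass. The ETS letters were in 12 of 50 (24%) called higher and 3 of 12 (25%) that did not pass, and the YY1 letters in 6 of 50 (12%) and 2 of 12 (16.7%). The NRF1 holders that did not pass were Atp5g2, Atp5k, Atp5l, Ndufa8 and Uqcrc1, with log2 fold changes of 0.44, 0.23, 0.06, 0.34 and 0.14. Atp5g2 and Atp5l averaged 1.79 and 4.53 CPM over the 8 libraries, levels at which depth limits the calls. Not passing does not show that a gene stayed level. These shares are given as a description, with no test.

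In CIS-null over wild-type cells in vitro, Ncor1, a corepressor of nuclear receptors, averaged 61.5 CPM in CIS-null in vitro cells and 142.6 CPM in wild-type in vitro cells (log2 fold change -1.21, SE 0.148, adjusted p = 0.00361). Ppargc1a, the coactivator PGC-1 alpha, was near the limit of detection, averaging 0.549 CPM in CIS-null in vitro cells and 1.85 CPM in wild-type in vitro cells (log2 fold change -1.74, SE 0.405, adjusted p = 0.0181). Without CIS-null in vitro replicate 2, 1 of the 17 regulators was called lower.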

How the data were processed

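RNA was sequenced from 8 libraries, 2 in each of 4 groups. Per the submitters' processing notes, the authors used Subread, featureCounts and limma with GRCm38 (mm10); versions, strand and multi-mapping settings are not given in the sources used here. The authors deposited raw read counts for 27179 genes, 565 without a symbol, with gene lengths, and log2 RPKM values for 12372 genes. Counts were used throughout, and the deposited log2 values for 1 alternative.

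Members and lists were chosen with earlier results of these data known. edgeR 4.0.16 under R 4.3.3 was used. Low genes were dropped with its filterByExpr function, grouped by condition (count of at least 10, total of at least 15). Scaling was by TMM, and 1 model held every library with a mean for each group, leaving 4 residual and 4.45 prior degrees of freedom. Quasi-likelihood F tests compared genotype in vitro, genotype ex vivo, culture in each genotype and the interaction. P-values were adjusted over 13184 genes, and calls are at 0.05. Standard errors were obtained as the size of the log2 fold change divided by the root of its F value. Totals of 21.5 to 28.1 M counts set the precision of low members. RPKM for levels was computed from normalised counts and the deposited lengths. In the length alternative a spline with 4 degrees of freedom was removed from each library. Gene positions, promoters (69 of 84 members matched) and names came from RefSeq tables of GRCm38.p6, the build of the files, and shared windows of 50 bases from GENCODE transcripts. Fits were tested on simulated data. DESeq2 1.42.0 and limma 3.58.1 gave alternatives.

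Values in every library are given for the members with the most positive and most negative change per complex at a mean of 5 CPM or more, in genotype in vitro and in wild-type culture, for isoform families and for complex II. Ndufa10, Ndufa12, Ndufa13, Atp5b and others outside this rule were named after their values were seen. List members are the 2 highest and 2 lowest among those called, and the others (Hif1a, Nrf1, Gabpa, Yy1, COX1, ND6) were named after their values were seen.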

Additional observations from a re-analysis of the deposited data

How the results depend on the processing

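Over 20 alternative fits, no count of members and no member followed singly changed direction while called; the other gene lists were refitted under 5 of them. Culture counts held: 45 to 65 members were higher in wild-type in vitro cells and 57 to 69 in CIS-null in vitro cells. The genotype count in vitro did not hold. Against 35 members higher, it was 3 with library totals, 56 with DESeq2, 5 with the length trend removed, 18 with limma on the deposited log2 RPKM, and 0 to 58 on leaving out each library. With the length trend removed 1 member was lower (Ndufa4), and 1 was lower in the interaction (Ndufa4 again). The causes were not tested. Members lower in wild-type culture numbered 3 instead of 5 at 5 CPM in 2 libraries, where Ndufa12 and Cox6b2 were not tested, and 2 to 5 on leaving out each library; Cox6a2 and Ndufa4 were called each time. In such fits the lone sample is assumed to vary like the others.

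With the replicate number as a block, 10 members were higher in CIS-null in vitro cells (Atp5b, Atp5g1, Cox6a1, Cox7c, Ndufa11, Ndufa13, Ndufb6, Ndufb7, Ndufs3 and Ndufs6). Deviations of same-numbered samples correlated between -0.33 and 0.17. These correlations cannot tell whether same-numbered samples shared a mouse, culture or batch, and the labels do not say. With 2 libraries a group, depth limits members below about 5 CPM, such as Sdhd, Ndufb4 and Cox6b2.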

Other observations

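Mitochondrial protein import, which delivers the nuclear-encoded subunits, moved as a list in the same comparisons. Of 25 import genes, 22 were higher and 0 lower in wild-type in vitro cells than ex vivo (median log2 fold change 0.89), and 18 were higher and 0 lower in CIS-null in vitro cells than in wild-type in vitro cells (median 0.53). Over all genes, 32.1% were called higher and 31.6% lower in wild-type culture, and 11.0% were called higher and 14.6% lower in CIS-null in vitro cells. The genotype count was 15 with the length trend removed and 2 without CIS-null in vitro replicate 2. Chchd4, the oxidoreductase of the intermembrane space import route, averaged 55.2 CPM in CIS-null in vitro cells and 27.4 CPM in wild-type in vitro cells (log2 fold change 1.01, SE 0.130, adjusted p = 0.00396). Timm10, a small chaperone of that space, averaged 34.9 CPM in CIS-null in vitro cells and 16.8 CPM in wild-type in vitro cells (log2 fold change 1.05, SE 0.195, adjusted p = 0.00937). All 7 tested mitochondrial carriers were higher in wild-type culture, and 3 were higher in CIS-null in vitro cells, or 0 without replicate 2 of those cells. Slc25a4, an ADP/ATP carrier, averaged 273.9 CPM in wild-type in vitro cells and 65.8 CPM in wild-type ex vivo cells (log2 fold change 2.06, SE 0.158, adjusted p = 1.33e-05).

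The pathways that feed the chain were more mixed. Of 15 genes of the tricarboxylic acid cycle, 8 were higher and 2 lower in wild-type in vitro cells; Fh1 (fumarase) rose by 1.23 and Ogdh fell by 0.76 on the log2 scale (adjusted p = 2.99e-05 and 0.000771), and 2 of the 15 were higher in CIS-null in vitro cells, a share near that over all genes, or 0 without CIS-null in vitro replicate 2. Of 13 genes of coenzyme Q synthesis, 9 were higher in wild-type culture and 3 in CIS-null in vitro cells. The count of 3 was 0 with library totals, 0 without CIS-null in vitro replicate 2 and 1 with the length trend removed. Coq7 rose by 1.68 in wild-type culture (adjusted p = 0.000102). Of 8 genes that bring electrons in by other routes, 2 were higher and 1 lower in wild-type culture, below the shares over all genes: Etfb of the electron transfer flavoprotein rose by 1.55 (adjusted p = 3.70e-05) and Prodh, which oxidises proline, fell by 2.47 (adjusted p = 4.46e-05). Of 15 genes that transcribe and maintain mitochondrial DNA, 6 were higher and 2 lower in wild-type culture, the share higher being near that over all genes. Polg, the mitochondrial DNA polymerase, averaged 14.3 CPM in wild-type in vitro cells and 62.0 CPM in wild-type ex vivo cells (log2 fold change -2.12, SE 0.153, adjusted p = 9.70e-06).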
